A study of Mus musculus with 100 samples.

Results

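The 9 genes described here encode secreted chemokines that draw monocytes out of the blood and the receptors through which these cells respond. They are the monocyte chemoattractant protein (MCP) genes Ccl2, Ccl7, Ccl8 and Ccl12, the macrophage inflammatory protein (MIP-1) genes Ccl3 and Ccl4, and the receptors Ccr2, Ccr1 and Cx3cr1. They were chosen by name for these roles, and all 9 are among the 17310 genes counted. RNA-seq was performed on whole knee joints, with traces of soft tissue, of MRL/MpJ, C57BL/6 and STR/ort mice, which the labels call not, moderately and highly susceptible to post-traumatic osteoarthritis. At 10 weeks of age the right knee received a single compressive load of 10 to 12 N on the tibia, which tears the anterior cruciate ligament. Injured joints and uninjured contralateral joints were taken 1-day or 1-week or 2-weeks after the load, and joints of mice without injury at 0-day, giving 21 groups of 4 or 5 libraries and 100 libraries in all. The labels name no engineered allele in any group. By the study's methods, mice were under isoflurane when the knee was loaded and received the analgesic buprenorphine afterwards, so both joints of an injured animal come from a treated mouse, and whether the 0-day mice were treated is not given in the sources used here. The contralateral joint belongs to an animal with an injured knee and is not a sham control, and the only other uninjured joints are those of 0-day. The 70 libraries up to 1-week were sequenced as a first batch and the 30 of 2-weeks as a second one, and for 2-weeks the batch cannot be told apart from the time.

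Chemokines are small secreted proteins that form gradients on vessel walls and matrix, and leukocytes migrate up these gradients by G protein-coupled receptors. CCL2, CCL7 and CCL12 bind CCR2, the receptor by which inflammatory monocytes leave the bone marrow and enter damaged tissue, and CCL8 is a relative that also binds other receptors. CCL3 and CCL4 are made mostly by activated myeloid and lymphoid cells, and CCL3 acts by CCR1. CX3CR1 binds fractalkine and marks patrolling monocytes and many resident macrophages. In the joint, monocytes and macrophages of the synovium take part in clearing debris after injury, and they are a source of inflammatory mediators in arthritis.

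The ligand genes lie in a cluster on chromosome 11 and the receptor genes on chromosome 9 (GRCm38.p6). On chromosome 11, Ccl2 spans 82035577 to 82037452, Ccl7 82045712 to 82047525, Ccl12 82101845 to 82103399 and Ccl8 82115185 to 82116799, all on the plus strand. Ccl3 (83647843 to 83649378, minus strand) and Ccl4 (83648624 to 83664683, plus strand) overlap in their annotated spans, and since the strand setting of the counting is not stated, reads in the shared stretch cannot be assigned with certainty. On chromosome 9, Cx3cr1 spans 120048683 to 120068296 and Ccr1 123962126 to 123968692 on the minus strand, and Ccr2 124101918 to 124109140 on the plus strand. The MCP mRNAs are related, but the longest identical run between any of them was 23 bases (Ccl2 and Ccl7), and the other pairs of MCP genes shared 11 to 17.

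The 250 bases before the start of transcription are shown for a pair of injury-responsive MCP genes and for Ccl3, which was called in no injury comparison, so that the letters can be read beside the values below. They were read from the RefSeq promoter table, which matched 6 of the 9 genes (Ccl2, Ccl7 and Ccl4 had no entry). Capitals mark the TATA box letters TATAAA, and each sequence runs 5′ to 3′ on the strand of its gene.
Ccl8, chr11:82114935-82115184, plus strand: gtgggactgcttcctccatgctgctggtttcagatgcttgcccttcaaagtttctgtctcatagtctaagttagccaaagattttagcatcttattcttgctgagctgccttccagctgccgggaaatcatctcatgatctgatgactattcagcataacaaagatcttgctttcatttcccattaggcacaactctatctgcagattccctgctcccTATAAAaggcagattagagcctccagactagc
Ccl12, chr11:82101595-82101844, plus strand: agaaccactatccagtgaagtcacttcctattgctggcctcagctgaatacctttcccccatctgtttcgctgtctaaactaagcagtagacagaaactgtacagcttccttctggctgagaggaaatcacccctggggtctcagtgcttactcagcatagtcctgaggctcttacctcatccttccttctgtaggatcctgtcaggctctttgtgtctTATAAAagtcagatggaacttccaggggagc
Ccl3, chr11:83649379-83649628, minus strand: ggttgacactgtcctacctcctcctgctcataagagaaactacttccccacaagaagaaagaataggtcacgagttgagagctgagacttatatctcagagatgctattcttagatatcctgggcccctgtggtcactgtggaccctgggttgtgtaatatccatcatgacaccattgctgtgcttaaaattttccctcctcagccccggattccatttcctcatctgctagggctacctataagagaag

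TATAAA, searched on both strands, begins 32 bases before the start in Ccl8 and 31 bases before it in Ccl12, and these letters are not in the windows of Ccl3, Ccr2, Ccr1 or Cx3cr1. The Ccr2 window lies before the start used in the promoter table, which is inside the gene span given above, and so does not precede the first annotated base of the gene. Of 32851 windows of this length, 12.37% hold it. The AP-1 letters TGANTCA (6.75% of all windows) and the STAT consensus (7.02%) were found in none of the 6 windows. The NF-kappaB consensus (7.25%) matched once, in Ccr1, 74 bases before the start. A match describes the letters only.

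Depth was 6182016 to 20986027 counts per library (median 10582592), which sets the precision of the ligand genes, since of 55 libraries of uninjured joints 45 held fewer than 20 reads of Ccl2, 49 of Ccl7, 37 of Ccl8 and 55 of Ccl12. The receptor genes had at least 79 reads in each. Levels are in CPM, the reads of a gene relative to its library's size after TMM scaling (a correction for differences in RNA composition). Per kilobase of the longest RefSeq mRNA the receptors had the highest levels, with means over all libraries of 39.3 CPM per kb for Ccr2, 19.0 for Ccr1 and 7.22 for Cx3cr1. Ccl8 (5.73), Ccl7 (5.50) and Ccl2 (4.84) followed, and Ccl3 (2.22), Ccl12 (1.05) and Ccl4 (0.823) were the lowest. Between the lowest and the highest group mean, Ccl7 spanned 210-fold and Ccl2 102-fold, whereas Ccr1 spanned 1.65-fold. Defining markers of joint tissue were counted, with 5 of 6 listed cartilage genes, 5 of 5 bone genes, 7 of 7 synovial fibroblast genes and 14 of 14 macrophage genes, none at 0 in all libraries of a group. The synovial fibroblast list holds the collagen genes Col1a1 and Col3a1 beside Prg4, Pdgfra, Pdgfrb, Thy1 and Pdpn. The share of each gene in its summed level is not given here.

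Ccl2, Ccl7 and Ccr2 rose in the injured joints of all 3 strains at 1-day, and fewer members were called later in MRL/MpJ and C57BL/6. Injured were compared with uninjured contralateral joints in each strain, and called genes are those with an adjusted p below 0.05 (edgeR quasi-likelihood test, Benjamini-Hochberg over all genes) and more than a 1.5-fold change. Errors of log2 fold changes are SEs, and those of mean levels are SDs over the 4 or 5 libraries of a group. At 1-day, 5 of the 9 members were called higher in MRL/MpJ, 6 in C57BL/6 and 4 in STR/ort, and 0 lower. The share of all genes called in these comparisons was 1.98%, 5.53% and 4.08%. At 1-week, 1, 2 and 4 members were called higher (all genes, 3.06%, 5.74% and 9.04%). At 2-weeks, 4 members were called higher in STR/ort and 0 in MRL/MpJ and C57BL/6, where edgeR gave 3 members an unadjusted p under 0.05 in each strain and DESeq2 called 0 of the 7 members to which it gave an adjusted p (all genes, 1.16%, 2.95% and 4.67%). In a joint measured in bulk, more or fewer cells of a type and more or less RNA per cell cannot be told apart.

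**Figure D1:**
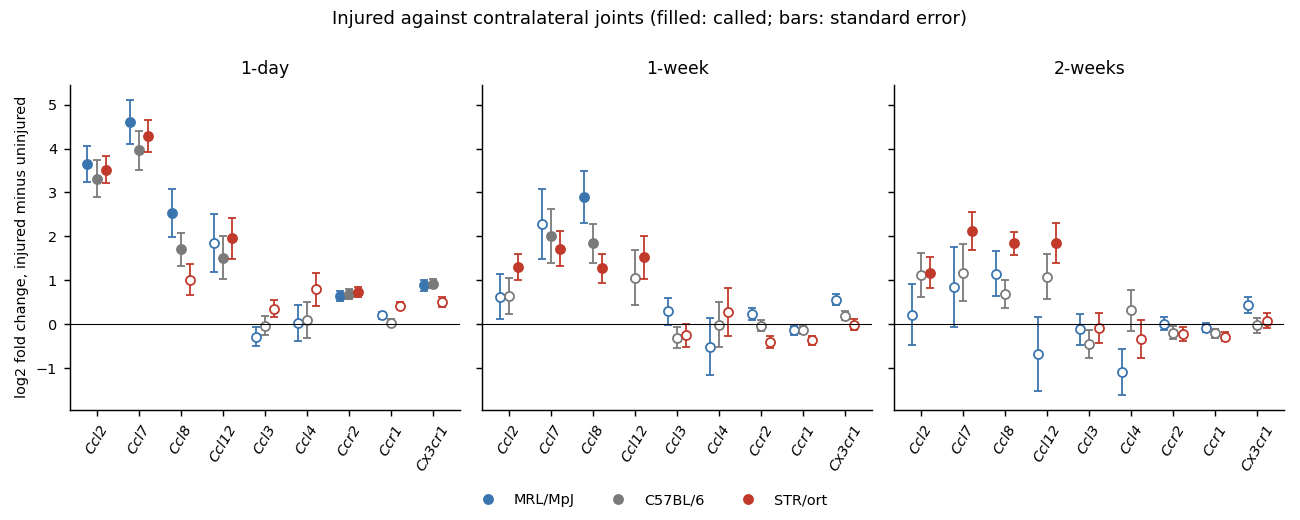
Log2 fold change of injured over uninjured contralateral joints (± SE) of the 9 genes in 3 panels for 1-day, 1-week and 2-weeks, with 1 colour per strain and filled points for genes that were called. Ccl2 and Ccl7 lie above 3 in all strains at 1-day, and at 2-weeks the filled points are the 4 MCP ligands of STR/ort. Ccl12 of MRL/MpJ at 1-week, with 3 reads in the uninjured joints, is not drawn.

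Ccl2, the main ligand of CCR2, rose in all 3 strains at 1-day. Levels in the injured joints were 10.8, 13.1, 8.73, 11 and 10.1 CPM in MRL/MpJ, against 1.72, 0.976, 0.531, 0.879 and 0.327 in the uninjured joints. In C57BL/6 they were 7.57, 5.69, 8.80, 9.74 and 6.43 CPM against 0.674, 1.10, 0.361, 0.540 and 1.27. In STR/ort they were 42.0, 36.8, 32.8, 33.0 and 22.2 CPM against 6.78, 2.89, 0.934, 1.92 and 1.32. In each strain every injured library was above every uninjured one, and all injured STR/ort libraries were above all other libraries of 1-day. The log2 fold changes were 3.65 ± 0.41 in MRL/MpJ (adjusted p = 1.72e-06), 3.31 ± 0.42 in C57BL/6 (adjusted p = 1.98e-06) and 3.52 ± 0.31 in STR/ort (adjusted p = 1.30e-08). Without the uninjured STR/ort replicate 1, which had the highest contralateral level, the STR/ort value was 4.23.

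Ccl7, another CCR2 ligand encoded next to Ccl2, had the largest injury fold changes of the 9 genes at 1-day. In MRL/MpJ the injured joints had 11.1, 16.9, 10.5, 11.5 and 12.3 CPM and the uninjured joints 1.61, 0.650, 0.106, 0.0879 and 0.246. In C57BL/6 the values were 15.0, 7.79, 10.9, 19.9 and 12.3 CPM against 0.786, 1.38, 0.0902, 0.405 and 1.87. In STR/ort they were 35.3, 44.5, 35.9, 38.7 and 36.2 CPM against 3.69, 1.79, 0.560, 2.74 and 0.577. The groups did not overlap in any strain. The log2 fold change was 4.61 ± 0.50 in MRL/MpJ (adjusted p = 1.46e-06), 3.96 ± 0.44 in C57BL/6 (adjusted p = 3.38e-07) and 4.29 ± 0.37 in STR/ort (adjusted p = 1.17e-08). The 5 uninjured MRL/MpJ libraries held 1 to 15 reads of the gene, and the MRL/MpJ value was 5.53 without uninjured replicate 1.

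Ccl8 rose in MRL/MpJ and C57BL/6 at 1-day. Its levels were 1.88, 3.98, 3.70, 2.77 and 2.29 CPM in injured and 0.967, 0.108, 0.531, 0.528 and 0.409 in uninjured MRL/MpJ joints (log2 fold change 2.53 ± 0.54, adjusted p = 0.00486). In C57BL/6 they were 11.4, 4.82, 4.33, 8.24 and 4.98 against 3.14, 2.30, 0.902, 1.66 and 2.72 CPM (log2 fold change 1.70 ± 0.37, adjusted p = 0.00157). In STR/ort, injured joints had 5.30, 8.26, 5.52, 4.97 and 4.15 CPM and uninjured joints 3.77, 4.99, 0.654, 3.10 and 1.15, groups that overlapped, and the gene was not called (log2 fold change 1.02 ± 0.36, adjusted p = 0.0775). The difference between the strains' responses was not called in any pair of strains. Ccl12, the mouse relative of CCL2, was the least abundant MCP gene. It rose in C57BL/6 (log2 fold change 1.52 ± 0.49, adjusted p = 0.0275) and in STR/ort (log2 fold change 1.95 ± 0.47, adjusted p = 0.00517), and in MRL/MpJ its value was 1.86 ± 0.66 (adjusted p = 0.126). The mean levels of Ccl12 in injured joints were 0.803 ± 0.468 CPM in MRL/MpJ, 1.40 ± 0.549 in C57BL/6 and 2.11 ± 1.52 in STR/ort (SD, n = 5). The C57BL/6 call of Ccl12 was lost without injured replicate 4 (1.24, adjusted p = 0.14) or uninjured replicate 3 (1.38) or 4 (1.40), and the STR/ort value was 2.59 without uninjured replicate 1.

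**Figure D2:**
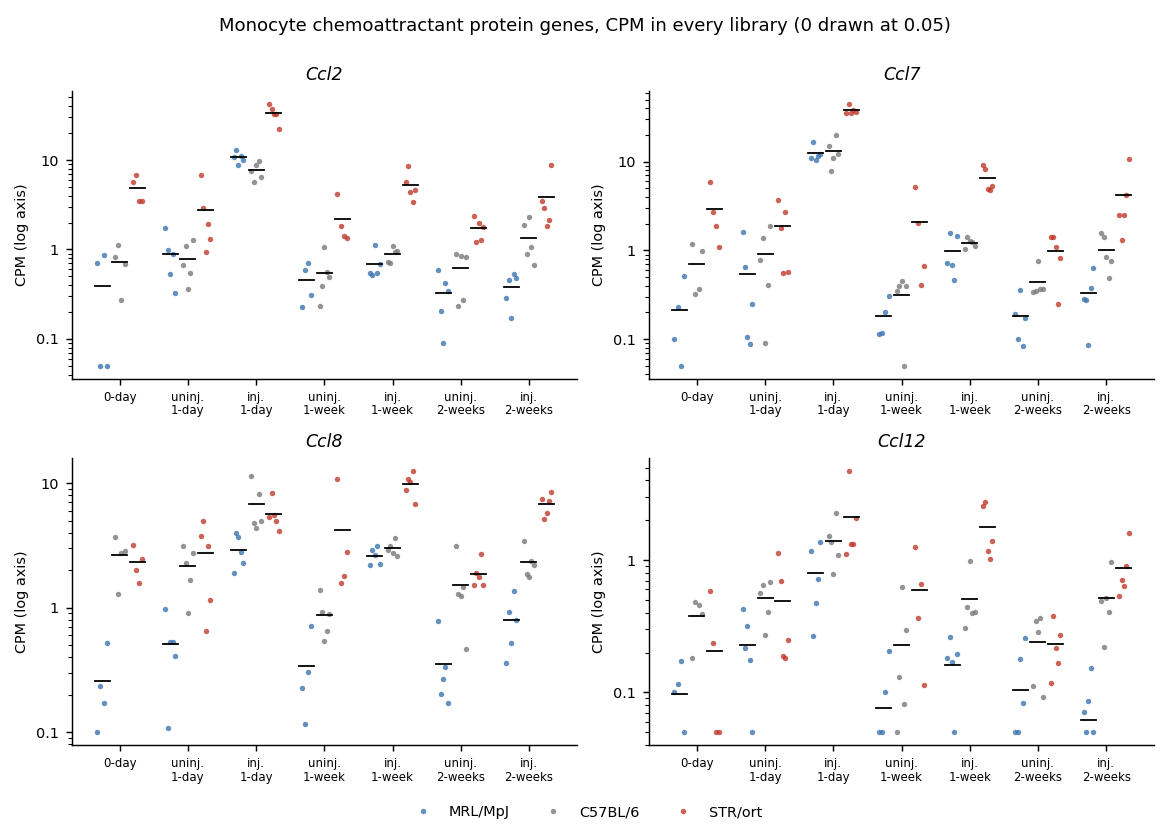
CPM (log axis) of Ccl2, Ccl7, Ccl8 and Ccl12 in each of the 100 libraries, grouped by strain, joint and time, with a line at the group mean and levels of 0 drawn at 0.05. Ccl2 and Ccl7 reach group means of 33.4 and 38.1 CPM in injured STR/ort joints at 1-day, above the injured joints of the other strains, and Ccl12 stays near or below a few CPM throughout.

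At 1-week Ccl8 rose in all 3 strains. It had 2.18, 2.88, 2.65, 3.12 and 2.24 CPM in injured and 0.226, 0.117, 0.302 and 0.713 in uninjured MRL/MpJ joints (log2 fold change 2.89 ± 0.60, adjusted p = 0.00236). In C57BL/6 the values were 2.88, 3.12, 2.75, 3.63 and 2.58 against 1.39, 0.919, 0.537, 0.648 and 0.885 CPM (log2 fold change 1.84 ± 0.44, adjusted p = 0.00496). In STR/ort they were 8.82, 10.7, 10.2, 12.6 and 6.77 against 10.7, 1.57, 1.81 and 2.81 CPM (log2 fold change 1.27 ± 0.33, adjusted p = 0.00681), where 1 uninjured library, replicate 1, was as high as the injured ones. With 2 RUVg factors, estimates of unwanted variation from housekeeping genes, the STR/ort call was lost (0.97, adjusted p = 0.127). Without that library the STR/ort value was 2.25, and without uninjured replicate 4 the MRL/MpJ value was 3.53. Ccl7 rose in C57BL/6 (log2 fold change 2.01 ± 0.62, adjusted p = 0.0337) and STR/ort (log2 fold change 1.72 ± 0.40, adjusted p = 0.00243), with mean levels in injured joints of 1.23 ± 0.151 and 6.51 ± 2.09 CPM. In MRL/MpJ its groups did not overlap, with 0.727, 1.57, 0.685, 0.459 and 1.46 CPM in injured and 0.113, 0.117, 0.202 and 0.306 in uninjured joints, and the gene was not called (log2 fold change 2.28 ± 0.80, adjusted p = 0.122, with 7 reads in all uninjured libraries). The C57BL/6 call of Ccl7 was lost without any one of injured replicates 2, 3, 4 or 5 or uninjured replicates 1, 2 or 4 (1.61 to 2.09) or with 2 RUVg factors (2.03, adjusted p = 0.0718), and the STR/ort value was 2.70 without uninjured replicate 1. Ccl2 had 5.69, 8.49, 4.37, 3.35 and 4.68 CPM in injured STR/ort joints, against 4.15, 1.81, 1.40 and 1.35 in uninjured ones, where replicate 1 again overlapped with the injured libraries. Ccl2 (log2 fold change 1.30 ± 0.29, adjusted p = 0.00164) and Ccl12 (log2 fold change 1.52 ± 0.48, adjusted p = 0.0226) were called in STR/ort only, and the difference from the other strains was not called for either gene. Without uninjured replicate 1 the Ccl2 value was 1.78. The Ccl12 call was lost without injured replicate 1 or 2 or uninjured replicate 2, 3 or 4 (1.19 to 1.60), or with 2 RUVg factors (1.46, adjusted p = 0.119). In uninjured STR/ort replicate 1 the summed level of 14 macrophage genes was 950.0 CPM, against 570.0 to 785 in the others of its group, and its part in these ligand levels was not tested.

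At 2-weeks the 4 MCP ligands rose in STR/ort. Ccl8 was the clearest, with 7.50, 5.18, 5.77, 7.20 and 8.47 CPM in injured and 1.53, 1.88, 1.75, 2.69 and 1.53 in uninjured joints, which did not overlap (log2 fold change 1.84 ± 0.26, adjusted p = 3.66e-06). Ccl12 did not overlap either (log2 fold change 1.85 ± 0.45, adjusted p = 0.00452), with mean levels of 0.873 ± 0.421 and 0.230 ± 0.0996 CPM. Ccl2 had 3.48, 2.90, 1.84, 2.16 and 8.73 CPM in injured and 2.35, 1.22, 1.96, 1.26 and 1.80 in uninjured joints (log2 fold change 1.17 ± 0.35, adjusted p = 0.0234), and Ccl7 had 2.50, 1.32, 2.48, 4.23 and 10.7 and 1.41, 1.41, 1.09, 0.252 and 0.812 CPM (log2 fold change 2.13 ± 0.44, adjusted p = 7.37e-04). Injured replicate 5 was the highest library for both. Without it Ccl2 was no longer called (0.62, adjusted p = 0.197) and Ccl7 was at 1.44. The Ccl2 call was also lost without uninjured replicate 2 (1.07, adjusted p = 0.0544) or 4 (1.08, adjusted p = 0.0604). In C57BL/6 the values were 1.12 ± 0.50 for Ccl2, 1.18 ± 0.64 for Ccl7, 0.68 ± 0.32 for Ccl8 and 1.08 ± 0.51 for Ccl12, and in MRL/MpJ they were 0.22 ± 0.69, 0.84 ± 0.91, 1.15 ± 0.50 and -0.68 ± 0.84, none called. Markers of other tissues moved with the STR/ort change. Of 7 synovial fibroblast genes 5 were called higher and of 5 cartilage genes 3. The summed fibroblast levels were 26700 (21700 to 30000) CPM in injured and 13700 (11600 to 15100) in uninjured joints, and those of cartilage 4750 (3720 to 5430) and 2450 (2130 to 3200), given as the median with the lowest and highest library. Neither pair of STR/ort groups overlapped. The fibroblast sums were also higher in injured C57BL/6 joints, 20000 (16500 to 22500) against 13000 (12000 to 14000) CPM, without overlap. In MRL/MpJ they were 13600 (9500 to 13700) against 8480 (7790 to 9630), with overlap. The cartilage sums were 3500 (2200 to 4340) against 2350 (2190 to 2660) in C57BL/6 and 1990 (1240 to 2250) against 1670 (1230 to 1820) in MRL/MpJ, with overlap. The part of these markers in the ligand changes was not tested.

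Injured joints at 1-week were also compared with injured joints at 1-day, in different mice of the same sequencing batch. Members called lower numbered 3 in MRL/MpJ, 6 in C57BL/6 and 3 in STR/ort, and 1 was higher in STR/ort (all genes called, 3.07%, 4.37% and 13.8%). Ccl2 fell in all 3 strains, with log2 changes of -3.90 ± 0.38 in MRL/MpJ, -3.09 ± 0.37 in C57BL/6 and -2.68 ± 0.26 in STR/ort (adjusted p = 6.01e-12, 4.11e-09 and 1.05e-12). Ccl7 fell in the 3 strains too, with -3.69 ± 0.43, -3.43 ± 0.40 and -2.57 ± 0.31. Ccl8 fell in C57BL/6 (log2 fold change -1.17 ± 0.34, adjusted p = 0.0105) but rose in STR/ort (log2 fold change 0.81 ± 0.30, adjusted p = 0.0316), where injured joints went from a mean of 5.64 ± 1.56 to 9.83 ± 2.18 CPM. In the same joints 5 of 7 fibroblast genes were called higher at 1-week, and their summed levels went from 20900 (18200 to 21400) to 41600 (34300 to 55900) CPM, without overlap. The part of these genes in the Ccl8 change was not tested. In MRL/MpJ Ccl8 was at -0.14 ± 0.38 and was not called. Ccl12 fell in MRL/MpJ (log2 fold change -2.25 ± 0.67, adjusted p = 0.0286) and C57BL/6 (log2 fold change -1.5 ± 0.49, adjusted p = 0.0238). The Ccl8 call was lost in C57BL/6 without injured 1-day replicate 1 (-0.93) and in STR/ort without any one of injured 1-day replicates 1, 3, 4 or 5 or 1-week replicates 2, 3 or 4 (0.70 to 0.80), and it was missed by DESeq2 (0.83, adjusted p = 0.0759). The Ccl12 call was lost in MRL/MpJ without injured 1-day replicates 1 or 5 or 1-week replicates 1, 3 or 4 (-2.31 to -1.93), and in C57BL/6 without injured 1-day replicate 4 or 1-week replicates 1 or 4 (-1.42 to -1.23) or with 1 RUVg factor (-1.28, adjusted p = 0.0591).

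Before injury, STR/ort joints had more Ccl2 and Ccl7 transcripts than both other strains, while its Ccr2 level was below both. At 0-day 4 members were called higher and 1 lower in STR/ort than in MRL/MpJ, 2 higher and 1 lower than in C57BL/6, and 4 higher and 0 lower in C57BL/6 than in MRL/MpJ (all genes called, 14.7%, 13.7% and 15.8%). The comparisons share libraries. Here and in the later strain comparisons, 1 or 2 called of 9 is not far from such shares and is not a result about the 9 genes as a group. Ccl8 had another order. Its levels were 0.0998, 0.233, 0.172 and 0.517 CPM in MRL/MpJ, 3.71, 1.29, 2.74 and 2.85 in C57BL/6 and 3.20, 2.01, 1.57 and 2.45 in STR/ort. MRL/MpJ was thus below both other strains (3.25 ± 0.51 for STR/ort and 3.46 ± 0.49 for C57BL/6, adjusted p = 3.01e-05 and 8.47e-06), and STR/ort and C57BL/6 differed by -0.21 ± 0.29 (adjusted p = 0.614). Ccl7 had 0.0998, 0.233, 0 and 0.517 CPM in MRL/MpJ, 1.18, 0.322, 0.365 and 0.982 in C57BL/6 and 5.92, 2.72, 1.88 and 1.10 in STR/ort, with STR/ort replicate 1 the highest and 6 reads in all in MRL/MpJ (log2 fold change 3.82 ± 0.75, adjusted p = 0.00108 against MRL/MpJ, 3.18 without that replicate and 4.47 without MRL/MpJ replicate 4). Against C57BL/6 the Ccl7 value was 2.04 ± 0.53, with 1.39 without STR/ort replicate 1, 2.89 with 1 RUVg factor and a lost call with 2 factors (3.13, adjusted p = 0.121). For Ccl2 the values were 3.57 ± 0.53 against MRL/MpJ, 4.21 without MRL/MpJ replicate 1, and 2.65 ± 0.43 against C57BL/6 (adjusted p = 6.15e-05 and 1.60e-04).

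A list of 8 immediate early genes moved with these 0-day differences. In STR/ort all 8 exceeded both other strains by the call rule, and their summed levels per library had a median of 1510 (1070 to 2010) CPM in STR/ort, 185 (177 to 199) in MRL/MpJ and 170 (154 to 220) in C57BL/6 (lowest to highest library in parentheses). In STR/ort replicates 1 to 4 the sums were 2010, 1880, 1140 and 1070 CPM, beside Ccl2 levels of 5.63, 6.75, 3.45 and 3.44 CPM. In uninjured joints at 1-week, where Ccl2 was also higher in STR/ort, the sums were 183 to 294 CPM in STR/ort, which overlapped with the 202 to 241 of MRL/MpJ and lay above the 134 to 165 of C57BL/6. Synovial fibroblast genes moved with Ccl8, as 3 of 7 were higher in STR/ort and 6 of 7 in C57BL/6 than in MRL/MpJ, with summed levels of 14200 (12400 to 14800), 14900 (14200 to 19400) and 8650 (7480 to 8950) CPM, MRL/MpJ below both without overlap. The part of these genes in the 0-day ligand levels was not tested.

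Across conditions, STR/ort had the higher levels of the MCP ligands Ccl2 and Ccl7. Ccl2 was called higher in STR/ort than in MRL/MpJ in 7 of 7 conditions (0-day and injured and uninjured joints at 3 times), with log2 differences of 1.64 to 3.57, and higher than in C57BL/6 in 7 of 7 (1.42 to 2.65). Ccl7 was called higher than in MRL/MpJ in 7 of 7 (1.61 to 3.82) and than in C57BL/6 in 5 of 7 (1.10 to 2.65). Ccl8 was higher in STR/ort than in MRL/MpJ in 7 of 7 (0.93 to 3.51) but than in C57BL/6 in 3 of 7 (-0.29 to 2.26), and it was higher in C57BL/6 than in MRL/MpJ in 5 of 7. Ccl12 was higher in STR/ort than in MRL/MpJ in 4 of 7 and than in C57BL/6 in 1 of 7. With 1 RUVg factor from housekeeping genes, the 7 conditions of Ccl2 against MRL/MpJ became 5, as both differences at 1-day were lost (1.13, adjusted p = 0.151, in injured and 1.28, adjusted p = 0.188, in uninjured joints), while the 7 against C57BL/6 were kept. With that factor the called conditions of Ccl7 were 5 against MRL/MpJ and 3 against C57BL/6, those of Ccl8 5 and 2, and those of Ccl12 1 and 0. With 2 factors they were 4 and 6 for Ccl2, 3 and 2 for Ccl7, 4 and 1 for Ccl8 and 1 and 0 for Ccl12. These counts describe 7 sets of libraries of 3 strains and are not independent tests, since at 2-weeks the joints of 1 animal enter both the injured and the uninjured set.

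**Figure D3:**
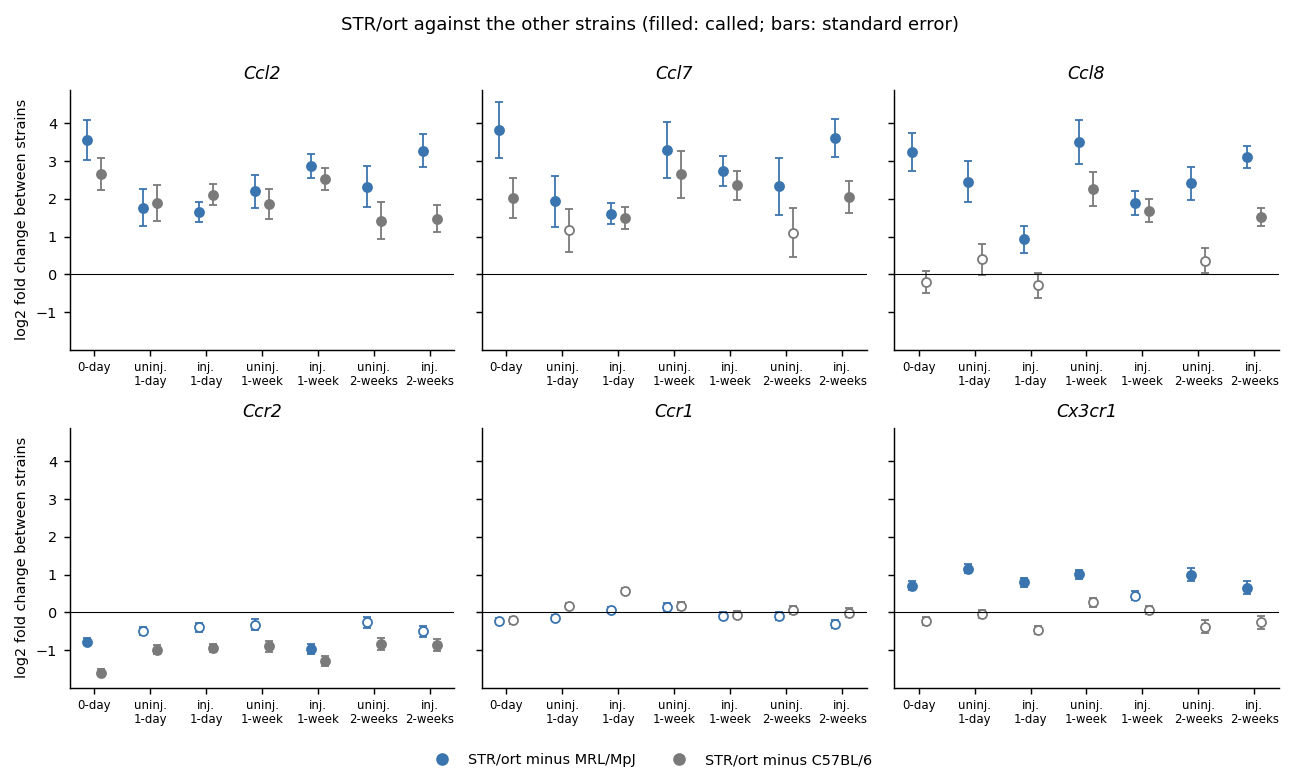
Log2 differences (± SE) of STR/ort from MRL/MpJ and from C57BL/6 for Ccl2, Ccl7, Ccl8, Ccr2, Ccr1 and Cx3cr1 in 7 conditions, with filled points for called differences. The Ccl2 points are filled and above 0 in all 7 conditions against both strains, and the Ccr2 points against C57BL/6 are filled and below 0 in all 7.

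Among injured joints at 1-day, STR/ort exceeded MRL/MpJ in 6 members and C57BL/6 in 2, with 1 lower than in C57BL/6, and C57BL/6 exceeded MRL/MpJ in 2 (all genes called, 20.2%, 12.2% and 16.2%). Mean Ccl2 was 33.4 ± 7.29 CPM in STR/ort, 10.7 ± 1.59 in MRL/MpJ and 7.64 ± 1.66 in C57BL/6 (SD, n = 5), a log2 difference of 1.64 ± 0.27 from MRL/MpJ (adjusted p = 1.40e-05) and 2.11 ± 0.28 from C57BL/6 (adjusted p = 1.86e-06). Mean Ccl7 was 38.1 ± 3.81, 12.5 ± 2.56 and 13.2 ± 4.58 CPM, with differences of 1.61 ± 0.29 and 1.5 ± 0.29. All 5 injured STR/ort libraries were above all 10 of the other strains for both genes. Ccl8 was higher than in MRL/MpJ in STR/ort (log2 fold change 0.93 ± 0.36, adjusted p = 0.0353) and in C57BL/6 (log2 fold change 1.23 ± 0.36, adjusted p = 0.00808). Ccl12 (1.33 ± 0.44) and Ccl3 (0.83 ± 0.21) were also higher in STR/ort than in MRL/MpJ. The STR/ort call of Ccl8 was lost without any one of MRL/MpJ injured replicates 1, 4 or 5 or STR/ort injured replicates 2 or 3 (0.76 to 0.93), and that of Ccl12 without STR/ort injured replicate 2 (0.84). With 1 RUVg factor the calls of Ccl2, Ccl3 (0.27, adjusted p = 0.674), Ccl8 (1.18, adjusted p = 0.254) and Ccl12 (0.44, adjusted p = 0.786) against MRL/MpJ were lost, and with housekeeping scaling that of Ccl8 (0.75, adjusted p = 0.0916). Tissue markers differed between the same joints. In STR/ort 3 of 7 fibroblast genes exceeded MRL/MpJ by the call rule, 1 was higher and 1 lower than in C57BL/6, and of 6 muscle genes 6 and 5 were lower. The summed fibroblast levels were 20900 (18200 to 21400) CPM in STR/ort, 12000 (9590 to 13200) in MRL/MpJ and 20200 (15800 to 24100) in C57BL/6, and those of muscle 19400 (14700 to 37200), 41900 (36000 to 67000) and 32200 (28400 to 45300) CPM. Their part in the ligand differences was not tested.

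Among uninjured joints at 1-day, STR/ort exceeded MRL/MpJ in 4 members and C57BL/6 in 1, with 1 lower than in C57BL/6, and C57BL/6 exceeded MRL/MpJ in 2 (all genes called, 22.5%, 10.2% and 14.7%). Here the ligand levels overlapped between strains. Ccl2 in STR/ort differed from MRL/MpJ by 1.77 ± 0.49 (adjusted p = 0.00378) and from C57BL/6 by 1.90 ± 0.47 (adjusted p = 0.00345). STR/ort replicate 1 was the highest library, and without it the values were 1.05 and 1.19. Ccl7 in STR/ort differed from MRL/MpJ by 1.94 ± 0.67 (adjusted p = 0.0184), a call that was lost without STR/ort replicate 1 (1.48) or MRL/MpJ replicate 4 (1.63) or 5 (1.71) and that moved to 2.86 without MRL/MpJ replicate 1. With 1 RUVg factor the Ccl7 call was lost too (2.00, adjusted p = 0.0931). Ccl8 was higher than in MRL/MpJ in both STR/ort (2.45 ± 0.55) and C57BL/6 (2.06 ± 0.56). In STR/ort 6 of 7 fibroblast genes exceeded MRL/MpJ and 3 exceeded C57BL/6 by the call rule, with summed levels of 20000 (17500 to 24000), 8730 (7070 to 9390) and 11500 (10400 to 15000) CPM, and of 8 immediate early genes 6 were higher than in either strain. The summed immediate early levels of STR/ort replicates 1 to 5 were 182, 184, 288, 355 and 843 CPM, against 160.0 to 195 in MRL/MpJ, and replicate 1, the highest for Ccl2, had the lowest of them. The part of either list was not tested.

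At 1-week the injured STR/ort joints had the highest group mean of Ccl8 (9.83 ± 2.18 CPM). The 4 MCP ligands exceeded both other strains there and Ccr2 was below both, while 0 were called between C57BL/6 and MRL/MpJ, where 3 had an unadjusted p under 0.05 by edgeR and DESeq2 called 0 (all genes called, 29.4%, 25% and 9.34%). The differences from MRL/MpJ were 2.87 ± 0.32 for Ccl2 (adjusted p = 7.92e-09), 2.74 ± 0.41 for Ccl7, 1.89 ± 0.32 for Ccl8 and 3.35 ± 0.56 for Ccl12. Those from C57BL/6 were 2.53 ± 0.30 (adjusted p = 4.53e-08), 2.36 ± 0.38, 1.69 ± 0.31 and 1.75 ± 0.44. No library of STR/ort overlapped with the other strains for any of these genes. Other tissue markers differed in the same joints. Against MRL/MpJ 7 of 7 synovial fibroblast genes were called higher and 6 of 6 skeletal muscle genes lower in injured STR/ort joints, and against C57BL/6 6 of 7 and 6 of 6. Summed fibroblast levels had medians of 41600 (34300 to 55900) CPM in STR/ort, 15200 (14100 to 16200) in MRL/MpJ and 16500 (15200 to 23000) in C57BL/6, and summed muscle levels of 18100 (12500 to 27600), 43900 (38300 to 63800) and 38500 (24200 to 49000) CPM. Their part in the ligand differences was not tested. With RUVg factors from housekeeping genes the count of 10 called members over the 3 strain pairs was 5 with 1 factor and 4 with 2. With 1 factor Ccl8 (1.95, adjusted p = 0.0547) and Ccl12 (2.80, adjusted p = 0.0688) were lost against MRL/MpJ, and Ccl7 (2.29, adjusted p = 0.051), Ccl8 (1.74, adjusted p = 0.0524) and Ccl12 (1.27, adjusted p = 0.345) against C57BL/6.

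Among uninjured joints at 1-week, STR/ort exceeded MRL/MpJ in 6 members and C57BL/6 in 3, with 1 lower than in C57BL/6, and C57BL/6 exceeded MRL/MpJ in 2 (all genes called, 24.3%, 22.1% and 8.43%). Ccl2 in STR/ort differed by 2.20 ± 0.45 from MRL/MpJ (adjusted p = 1.62e-04) and 1.87 ± 0.39 from C57BL/6 (adjusted p = 2.58e-04). Ccl7 differed by 3.30 ± 0.74 and 2.65 ± 0.62, and Ccl8 by 3.51 ± 0.58 and 2.26 ± 0.45. STR/ort replicate 1 was the highest library for Ccl2 and Ccl8, and without it the Ccl2 values were 1.72 and 1.39, the Ccl7 values 2.32 and 1.67, and the Ccl8 values 2.54 and 1.29. Without MRL/MpJ replicate 4 the Ccl8 difference from MRL/MpJ was 4.16. Ccl12 was called higher in STR/ort than in MRL/MpJ, whose libraries held 3 reads of it in all (no fold is given against a group with 3 reads or fewer), and the call was lost without STR/ort replicate 1. In these joints 7 of 7 fibroblast genes were higher in STR/ort than in either strain, and 8 and 6 of 14 macrophage genes. Summed fibroblast levels had medians of 27100 (17000 to 35000) CPM in STR/ort, 7440 (6870 to 10600) in MRL/MpJ and 7610 (6030 to 9630) in C57BL/6. Their part in the ligand differences was not tested. The count of 12 calls over the 3 strain pairs was 6 with 2 RUVg factors, and with 1 factor the Ccl7 differences were lost (3.21, adjusted p = 0.0704, and 2.57, adjusted p = 0.0729).

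Among injured joints at 2-weeks, STR/ort exceeded MRL/MpJ in 5 members and C57BL/6 in 3, with 1 lower than in C57BL/6, and C57BL/6 exceeded MRL/MpJ in 4 (all genes called, 18.8%, 10.3% and 11.4%). MRL/MpJ was lowest for all 4 MCP ligands, with means of 0.385 ± 0.151 CPM for Ccl2, 0.332 ± 0.200 for Ccl7, 0.790 ± 0.393 for Ccl8 and 0.0618 ± 0.0642 for Ccl12 (SD, n = 5). STR/ort differed from it by 3.28 ± 0.44, 3.62 ± 0.50, 3.10 ± 0.29 and 3.55 ± 0.55 (highest adjusted p = 3.36e-06), and C57BL/6 differed from it by 1.80 ± 0.52 for Ccl2, 1.58 ± 0.34 for Ccl8 and 2.83 ± 0.62 for Ccl12. The MRL/MpJ libraries held 4 reads of Ccl12 in all, with 2 libraries at 0, so the size of its differences is uncertain. From C57BL/6, STR/ort differed by 1.48 ± 0.36 for Ccl2, 2.06 ± 0.43 for Ccl7 and 1.52 ± 0.25 for Ccl8. Without STR/ort injured replicate 5 the Ccl7 differences were 2.93 from MRL/MpJ and 1.37 from C57BL/6. The summed fibroblast levels in these joints were 26700 (21700 to 30000) CPM in STR/ort, 13600 (9500 to 13700) in MRL/MpJ and 20000 (16500 to 22500) in C57BL/6, and their part was not tested. Among uninjured joints STR/ort exceeded MRL/MpJ in 4 members and C57BL/6 in 1, with 1 lower than in C57BL/6, and C57BL/6 exceeded MRL/MpJ in 2 (all genes called, 13.8%, 9.72% and 9.80%). The Ccl2 call against C57BL/6 in uninjured joints (log2 fold change 1.42 ± 0.49, adjusted p = 0.0290) was lost without C57BL/6 replicate 2 (1.24) or 4 (1.22) or STR/ort replicate 1 (1.30) or 3 (1.37). The summed fibroblast levels of uninjured joints were 13700 (11600 to 15100) CPM in STR/ort and 13000 (12000 to 14000) in C57BL/6, both above the 8480 (7790 to 9630) of MRL/MpJ without overlap, with an untested part in these differences.

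No difference between strains in the size of the injury change was called for the 9 genes. The interaction of strain and injury was called for 0 members at every time, with unadjusted p under 0.05 in 6 of 27 tests at 1-day, 5 at 1-week and 2 at 2-weeks by edgeR, and 0 calls by DESeq2, which gave no adjusted p in 2 of the 27 tests at 1-day and 3 at 1-week. Of all genes, the share called at 1-day was 0.144% between STR/ort and MRL/MpJ, 2.58% between STR/ort and C57BL/6 and 0.277% between C57BL/6 and MRL/MpJ. These shares were 0.815%, 0.404% and 0% at 1-week and 0.451%, 0.0462% and 0% at 2-weeks. The smallest adjusted p at 1-day, 0.0360, belonged to Ccr1, whose injury response was greater in STR/ort than in C57BL/6 by 0.39 ± 0.11, under the fold required. For Ccl2 at 1-day the responses of STR/ort differed by -0.13 ± 0.53 from MRL/MpJ and 0.21 ± 0.62 from C57BL/6. At 1-week the Ccr2 response of STR/ort differed from that of MRL/MpJ by -0.64 ± 0.19 (adjusted p = 0.103). With the replicate number as a block this difference was called (-0.63, adjusted p = 0.00341), but in neither strain are the numbers known to pair the joints. A p that misses the threshold does not show that the strains responded alike.

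Contralateral joints were compared with joints of uninjured mice at 0-day. At 1-day 0 members were called in any strain (unadjusted p under 0.05 by edgeR in 3, 0 and 3 of 9, and 0 calls by DESeq2, which gave no adjusted p for 4 members in MRL/MpJ), and the share of all genes called was 0.0924% in MRL/MpJ, 0.0635% in C57BL/6 and 9.84% in STR/ort. At 1-week 0 members were called in MRL/MpJ, where 1 had an unadjusted p under 0.05 by edgeR and DESeq2 called 0, and 1 was lower in C57BL/6 and 1 lower in STR/ort (all genes called, 0%, 5.61% and 13.5%). These were Ccl8 in C57BL/6 (log2 fold change -1.65 ± 0.49, adjusted p = 0.0157) and Ccl2 in STR/ort (log2 fold change -1.21 ± 0.39, adjusted p = 0.0133), in groups that overlapped. The Ccl8 call was lost without C57BL/6 0-day replicate 1 (-1.44) and the Ccl2 call without STR/ort 0-day replicate 2 (-0.99) or uninjured 1-week replicate 3 (-1.02) or 4 (-1.05). Ccl2 in STR/ort had 5.63, 6.75, 3.45 and 3.44 CPM at 0-day, 6.78, 2.89, 0.934, 1.92 and 1.32 at 1-day and 4.15, 1.81, 1.40 and 1.35 at 1-week. Without uninjured 1-week replicate 1 its change from 0-day to 1-week was -1.68. Between the same groups 8 of 8 immediate early genes and 6 of 6 muscle genes were called lower at 1-week, and 5 of 7 fibroblast and 12 of 14 macrophage genes higher. The summed levels went from 1510 (1070 to 2010) to 228 (183 to 294) CPM for immediate early genes, from 68800 (67500 to 76800) to 28100 (25400 to 49900) for muscle and from 14200 (12400 to 14800) to 27100 (17000 to 35000) for fibroblasts. In C57BL/6, where Ccl8 was lower, 6 of 7 fibroblast and 5 of 5 cartilage genes were lower too. What part these markers had in the ligand changes was not tested.

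The MIP-1 ligands were called in none of the 9 injury comparisons. Ccl3, a ligand of CCR1, had injury log2 fold changes of -0.45 to 0.35, and its group means ranged from 0.712 to 3.04 CPM. It was higher in STR/ort than in MRL/MpJ in injured joints at 1-day and in uninjured joints at 1-week (log2 fold change 1.16 ± 0.31, adjusted p = 0.00249), and higher in C57BL/6 than in MRL/MpJ at 0-day (log2 fold change 0.78 ± 0.27, adjusted p = 0.0309) and in uninjured joints at 1-week (log2 fold change 0.99 ± 0.29, adjusted p = 0.0172). The 0-day call was lost without any one of MRL/MpJ replicates 2, 3 or 4 or C57BL/6 replicates 1 or 2 (0.66 to 0.79) or with DESeq2 (0.77, adjusted p = 0.0681) or 1 RUVg factor (0.79, adjusted p = 0.0753), and the last without any one of MRL/MpJ uninjured replicates 1 or 4 or C57BL/6 uninjured replicates 1 or 4 (0.80 to 0.93). With 1 RUVg factor both STR/ort calls of Ccl3 were lost. Ccl4, a chemokine of activated myeloid and lymphoid cells, was called in none of the 48 comparisons, with injury values of -1.08 to 0.79 and group means of 0.212 to 1.02 CPM. Over the 21 group means the correlation of log2 CPM with Ccl2 was 0.457 for Ccl3 and 0.668 for Ccl4, as a description with no p, and both had their lowest mean in injured MRL/MpJ joints at 2-weeks and their highest in injured STR/ort joints at 1-day. Both genes were counted with few reads, and their annotated spans overlap as given above.

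Ccr2 rose in all 3 strains at 1-day and was lower in STR/ort than in C57BL/6 throughout. Injured joints had 146, 193, 182, 172 and 135 CPM in MRL/MpJ against 106, 119, 110.0, 104 and 104 in uninjured joints (log2 fold change 0.63 ± 0.11, adjusted p = 7.04e-04). In C57BL/6 the values were 237, 213, 278, 253 and 217 against 123, 136, 161, 179 and 147 CPM (log2 fold change 0.68 ± 0.11, adjusted p = 5.93e-05). In STR/ort they were 131, 158, 117, 114 and 106 against 84.5, 86.1, 66.4, 62.0 and 74.6 CPM (log2 fold change 0.72 ± 0.12, adjusted p = 7.10e-05). These log2 changes, 0.63 to 0.72, were smaller than those of its ligands Ccl2 and Ccl7 in the same joints, 3.31 to 4.61, a comparison between genes that was not tested. The MRL/MpJ value was 0.55 without injured replicate 2 and 0.57 with 1 RUVg factor, both under the fold required. Ccr2 was called in no injury comparison at 1-week or 2-weeks. In injured joints it fell from 1-day to 1-week in C57BL/6 (log2 fold change -0.77 ± 0.12, adjusted p = 1.45e-06) and STR/ort (log2 fold change -1.11 ± 0.12, adjusted p = 2.41e-11), and in STR/ort at 1-week the injured joints were at -0.42 ± 0.14 against the uninjured ones, under the fold required. In that comparison 2 of 10 monocyte genes, 6 of 12 neutrophil genes and 1 of 5 general immune cell genes were called lower. The summed levels in uninjured and injured joints were 2090 (1960 to 2210) and 1620 (1540 to 1730) CPM for monocytes, 1610 (1410 to 1660) and 1200 (1030 to 1220) for immune cells in general and 15600 (14400 to 19200) and 11400 (8780 to 12400) for neutrophils, without overlap. In injured STR/ort joints other markers of blood cells were lower at 1-week as well, with 4 of 10 monocyte genes, 3 of 5 general immune cell genes and 1 of 12 neutrophil genes called. The summed levels went from 2250 (1970 to 2290) to 1620 (1540 to 1730) CPM for monocytes, and those of immune cells in general and neutrophils started from 1790 (1580 to 1850) and 15700 (13600 to 16500), each without overlap with 1-week. The summed macrophage levels of injured STR/ort joints were 729 (675 to 754) CPM at 1-day and 724 (688 to 762) at 1-week. In C57BL/6 10 of 14 macrophage genes were lower at 1-week. Its summed monocyte levels were 2120 (2050 to 2390) CPM at 1-day and 2350 (2120 to 2460) at 1-week, with overlap. Its neutrophil sums rose from 12000 (10500 to 13400) to 14300 (13500 to 15100) CPM, without overlap. The part of these markers in the Ccr2 changes was not tested.

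By strain, Ccr2 at 0-day had 86.5, 93.2, 85.3 and 96.7 CPM in MRL/MpJ, 163, 151, 153 and 152 in C57BL/6 and 58.0, 60.3, 45.1 and 47.5 in STR/ort, in an order without overlap. STR/ort was lower than C57BL/6 in 7 of 7 conditions, with log2 differences from -1.59 to -0.84, and lower than MRL/MpJ in 2 of 7 (log2 fold change -0.77 ± 0.09, adjusted p = 3.31e-07 at 0-day and -0.97 ± 0.13 in injured joints at 1-week). C57BL/6 was above MRL/MpJ at 0-day (log2 fold change 0.82 ± 0.08, adjusted p = 9.19e-08), the only one of 7 conditions in which this was called. In each of the 7 conditions STR/ort thus had more Ccl2 and less Ccr2 than C57BL/6. Over the 21 group means the correlation of log2 CPM between Ccl2 and Ccr2 was -0.038, and between Ccl2 and Ccl7 it was 0.975, with no p since groups share strains and times. At 0-day macrophage markers moved the same way as Ccr2, as 8 of 14 were called lower and 0 higher in STR/ort than in C57BL/6, and in injured joints at 1-day 9 were lower and 1 higher. In the other conditions the macrophage genes did not, with 2 higher and 2 lower in uninjured joints at 1-day, 3 and 1 in injured and 6 and 0 in uninjured joints at 1-week, and 3 and 1 and 3 and 2 at 2-weeks. The summed macrophage levels at 1-week were 724 (688 to 762) CPM in injured STR/ort and 647 (605 to 692) in injured C57BL/6 joints, and 762 (570 to 950) and 583 (550 to 639) in uninjured ones, while Ccr2 was lower in STR/ort. The summed level of 10 monocyte genes was lower in STR/ort than in C57BL/6 in 6 of 7 conditions by its median. At 0-day it was 1530 (1340 to 1710) CPM in STR/ort, 2460 (2250 to 2640) in C57BL/6 and 1800 (1680 to 1880) in MRL/MpJ. In STR/ort and C57BL/6 it was 1880 (1730 to 1960) and 2350 (2050 to 2970) in uninjured joints at 1-day, 1620 (1540 to 1730) and 2350 (2120 to 2460) in injured and 2090 (1960 to 2210) and 2550 (2230 to 2920) in uninjured joints at 1-week, and 1550 (1280 to 1810) and 1900 (1690 to 2060) in injured and 1730 (1300 to 1930) and 2210 (2070 to 2500) in uninjured joints at 2-weeks. In injured joints at 1-day it was 2250 (1970 to 2290) and 2120 (2050 to 2390). The groups did not overlap in 5 of the 7 conditions, the exceptions being injured joints at 1-day and 2-weeks. By single genes, 1 or 2 of the 10 were called higher and 1 to 3 lower in each condition. In STR/ort and MRL/MpJ the general immune cell sums were 1350 (1150 to 1560) and 1890 (1720 to 1960) CPM at 0-day. In injured joints at 1-week they were 1200 (1030 to 1220) and 1900 (1550 to 1940). Neutrophil sums ranged from 13100 to 15400 and 16000 to 19200, then from 8780 to 12400 and 14600 to 19200. None overlapped, while monocyte sums overlapped at both times. Macrophage sums overlapped at 0-day and were higher in STR/ort at 1-week. The part of these lists in the Ccr2 differences was not tested.

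**Figure D4:**
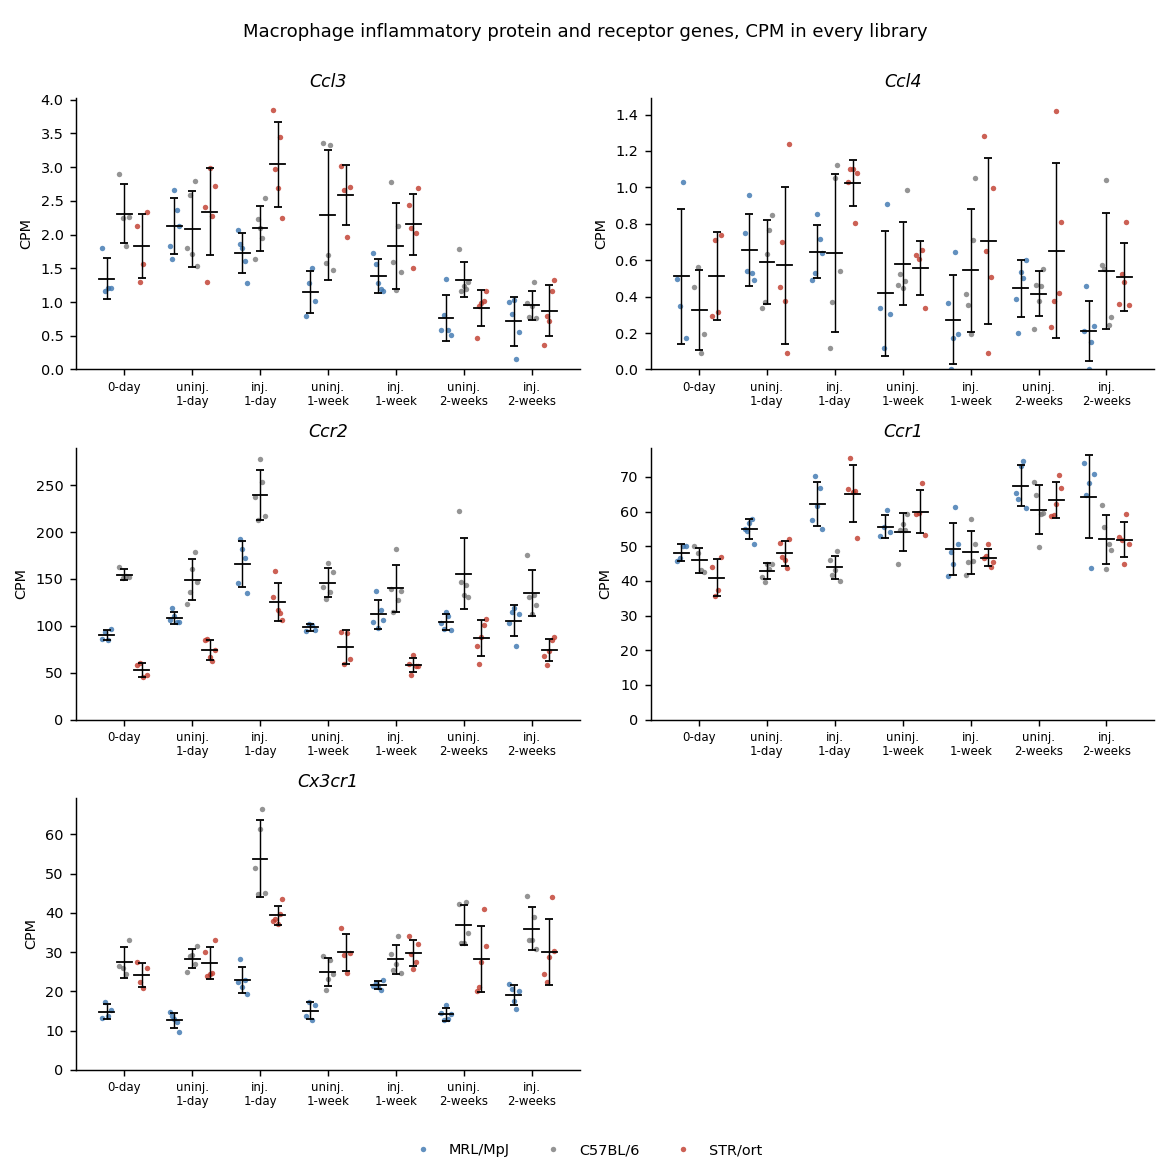
CPM (linear axes from 0) of Ccl3, Ccl4, Ccr2, Ccr1 and Cx3cr1 in each library, by strain, joint and time, with the group mean and SD. Ccr2 is highest in injured C57BL/6 joints at 1-day (mean 239.7 CPM), lowest in STR/ort at 0-day (52.7 CPM), and Ccr1 lies between group means of 40.9 and 67.5 CPM.

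Ccr1, the receptor of CCL3 and of further CC chemokines on neutrophils and monocytes, was called in none of the 48 comparisons. Its injury values ran from -0.37 to 0.42. In STR/ort it was at 0.42 ± 0.08 at 1-day (adjusted p = 2.68e-04) and at -0.37 ± 0.10 at 1-week (adjusted p = 0.00735), past the p threshold but under the fold required. Among the 9 genes it had the narrowest range of group means.

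Cx3cr1 rose at 1-day in MRL/MpJ, from 14.6, 13.8, 12.9, 12.3 and 9.58 CPM in uninjured to 22.3, 28.2, 21.1, 23.0 and 19.4 in injured joints (log2 fold change 0.88 ± 0.12, adjusted p = 1.38e-05), and in C57BL/6, from 24.9, 28.9, 29.2, 27.0 and 31.5 to 51.4, 44.7, 61.5, 66.4 and 45.0 CPM (log2 fold change 0.93 ± 0.11, adjusted p = 2.04e-07). In STR/ort it was 0.51 ± 0.11 (adjusted p = 0.00218), under the fold required, with 30.1, 23.9, 24.3, 24.7 and 33.0 CPM in uninjured and 37.9, 38.5, 37.2, 39.8 and 43.5 in injured joints. The strain order differed from that of Ccr2, since MRL/MpJ was lowest. STR/ort was above MRL/MpJ in 6 of 7 conditions (0.44 to 1.16 over all 7) and C57BL/6 in 6 of 7 (0.38 to 1.38), and STR/ort and C57BL/6 were called different in 0 of 7. Macrophage genes moved with this order at several times. At 1-day the sums of MRL/MpJ joints were below those of both other strains without overlap, with 616 (542 to 645) CPM against 1000 (888 to 1080) in C57BL/6 and 729 (675 to 754) in STR/ort for injured joints, and 489 (454 to 497) against 653 (647 to 678) and 663 (569 to 719) for uninjured ones. In injured joints at 1-week they were 574 (540 to 585), 647 (605 to 692) and 724 (688 to 762), again without overlap. At 0-day the sums were 460 (438 to 481) CPM in MRL/MpJ and 449 (394 to 497) in STR/ort, which overlapped, although Cx3cr1 was called higher in STR/ort. The 0-day sum of C57BL/6 was 661 (625 to 709) CPM. At 2-weeks the sums overlapped between MRL/MpJ and both others, and what part these genes had in the Cx3cr1 differences was not tested. The STR/ort call in injured joints at 2-weeks (log2 fold change 0.66 ± 0.17, adjusted p = 0.00228) was lost without MRL/MpJ injured replicate 4 (0.56) or STR/ort injured replicate 4 (0.48) or with 1 RUVg factor (0.51). In injured C57BL/6 joints Cx3cr1 fell from 1-day to 1-week (log2 fold change -0.94 ± 0.11, adjusted p = 1.74e-09).

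Markers of other cells moved with injury. Of 14 macrophage genes, 4 in MRL/MpJ, 8 in C57BL/6 and 2 in STR/ort were called higher at 1-day, and 2, 2 and 1 at 1-week, when 2 were lower in STR/ort. Their sums at 1-day, given with Cx3cr1, did not overlap between injured and uninjured joints in MRL/MpJ and C57BL/6 and overlapped in STR/ort. Of 10 monocyte genes, 1, 1 and 2 were higher at 1-day, and in STR/ort their sum was 2250 (1970 to 2290) in injured against 1880 (1730 to 1960) in uninjured joints, without overlap. Of 12 neutrophil genes 0 were called at 1-day, while their sum in C57BL/6 was 12000 (10500 to 13400) in injured and 16000 (15000 to 18700) in uninjured joints, also without overlap. Of 7 synovial fibroblast genes, 3, 4 and 1 were higher at 1-day and 5, 6 and 4 at 1-week, and of 6 muscle genes 3 were lower in STR/ort at 1-day and 4 at 1-week. At 2-weeks 0, 1 and 2 of the macrophage genes and 4, 4 and 5 of the fibroblast genes were higher. Their part in the changes of the 9 genes was not tested.

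Other genes of the same pathways were taken from lists. Of 13 further CC chemokines counted, 0 were called at 1-day in MRL/MpJ and 1 was higher and 1 lower in each of C57BL/6 and STR/ort. At 1-week 1 was higher in each strain and 1 lower in STR/ort, and at 2-weeks 2, 1 and 1 were higher. Ccl24, an eosinophil attractant, fell in C57BL/6 (log2 fold change -0.89 ± 0.22, adjusted p = 0.00385) and STR/ort (log2 fold change -2.31 ± 0.25, adjusted p = 4.04e-08) at 1-day, and Ccl20, listed at 0 CPM in all uninjured libraries of both strains, was called with means of 0.139 and 0.458 CPM in the injured joints, for which no fold is given. At 1-week Ccl24 was lower (-0.87 ± 0.24) and Ccl20 higher in STR/ort, and at 2-weeks Ccl24 was higher in MRL/MpJ (1.04 ± 0.24). Ccl21a, a lymphoid homing chemokine with near-identical copies that can share its reads, was higher at 1-week in MRL/MpJ (1.29 ± 0.19) and C57BL/6 (0.76 ± 0.19) and at 2-weeks in MRL/MpJ (0.86 ± 0.17), C57BL/6 (1.28 ± 0.19) and STR/ort (1.32 ± 0.16, adjusted p = 2.09e-07). Among further receptors Ackr2, a decoy receptor that takes up CC chemokines, fell in C57BL/6 at 1-day (-0.92 ± 0.25) and in STR/ort at 1-week (-0.71 ± 0.23), and Ccr3, the eotaxin receptor of eosinophils, fell in STR/ort at 1-week (-0.65 ± 0.19). Of 6 growth factor and fractalkine genes, Csf1, the growth factor of macrophages, rose at 1-day in MRL/MpJ (log2 fold change 0.71 ± 0.09, adjusted p = 1.70e-06) and STR/ort (log2 fold change 0.61 ± 0.08, adjusted p = 3.85e-06). Cd14, a coreceptor for lipopolysaccharide on monocytes, rose at 1-day by 0.92 ± 0.15 in MRL/MpJ, 1.07 ± 0.13 in C57BL/6 and 1.20 ± 0.12 in STR/ort, and Chil3, a secreted protein of monocytes and macrophages, fell in STR/ort at 1-week (-0.70 ± 0.10).

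The genes with the most similar pattern were found by Pearson correlation of mean log2 CPM over the 21 groups among 14410 genes with a mean of at least 1 CPM. For Ccl2 these included Ptx3 (r = 0.925) and Saa3 (0.915), and for Ccl7 they were Ptx3 (0.962), Saa3 (0.933) and Msr1 (0.928). Ptx3 and Saa3 encode acute phase proteins and Msr1 a macrophage scavenger receptor. For Ccl8 they were Dclk1 (0.954), Cdk14 (0.943) and Emp1 (0.935), and for Ccl12 Coro1c (0.951), Tgfbi (0.950) and Timp1 (0.937), of which Timp1 encodes an inhibitor of metalloproteinases. For Ccl3 they were Gpr65 (0.952), Ikbkb (0.946) and Trmt6 (0.940), and no gene reached such a value for Ccl4 (highest r, 0.734). Among the receptors, Ccr2 was closest to Vps35 (0.883), Ttf2 (0.867) and Aim1 (0.863), Ccr1 to Adam8 (0.941), Plek (0.826) and Git2 (0.822), and Cx3cr1 to Ccnd1 (0.927), Tnfrsf1b (0.911) and H2-Eb1 (0.898). The groups share strains, joints and times, so these values are a description with no p.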

How the data were processed

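Whole knee joints were measured by RNA-seq in 100 libraries. The counts used here were deposited by the authors, who aligned the reads to mm10 with TopHat2 (version 2.0.11) and counted them on RefSeq genes with featureCounts; whether strand was used and how reads with several matches were treated are not given in the sources used here. The table lists 17313 entries, of which 3 exact repeats were dropped, leaving 17310. The filter of the study (2 counts or more in 5 or more libraries) took out 0 genes. All 100 columns were mapped to samples by their titles. Within groups, 0 of 190 pairs of libraries were identical, and the lowest chi-square per degree of freedom of a pair was 1.92. Nothing in the labels of 0-day, 1-day and 1-week names the animals, so p-values there measure the spread between these libraries.

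Counts were tested with edgeR (version 4.0.16, in R 4.3.3) by robust quasi-likelihood fits with TMM factors and Benjamini-Hochberg adjustment over all genes. Each time point was fitted on its own, with group means for strain and joint. Comparisons between time points came from 1 fit of the 70 libraries of the first sequencing batch. A gene was called at an adjusted p below 0.05 and a fold change above 1.5, as in the study, whose RUVSeq factors are not numbered in the sources used here and were left out of the main test. The standard error was the log2 fold change divided by the square root of F. Levels are CPM, counts scaled to a common library size by TMM factors, and a prior count of 2 was added for log2 CPM. Total counts per library, from 6182016 to 20986027, limit the precision of genes with few reads. The fits were tested on simulated counts, with 2-fold and 4-fold changes put only into genes with a mean of at least 20 reads. Of the changed genes 93% to 100% were called in the right direction, and genes with a lower mean were not covered. Alternatives were RLE size factors, DESeq2 (version 1.42.0), RUVg with 1 or 2 factors from the 25 housekeeping genes of the study (computed from its published formula), scaling by those genes, no filter, filterByExpr, the compared groups only, a replicate block, and each library left out in turn.

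The labels of 2-weeks name 1 animal for both joints, so the replicate numbers pair the joints there; the correlations of the deviations from the group means ranged from -0.279 to 0.082 in MRL/MpJ, from 0.183 to 0.271 in C57BL/6 and from 0.213 to 0.449 in STR/ort. In STR/ort at 1-week all 4 pairs had correlations over 0.1 (0.162 to 0.37), but the labels there name no animals. The labelled pairs of MRL/MpJ at 2-weeks all lay below 0.1, and same-numbered C57BL/6 joints at 1-week reached 0.431. Correlations of this size thus cannot show whether the numbers pair the joints.

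The 9 members were chosen by function, and they, the lists of other chemokines, receptors, growth factors and cell markers, and the tests were chosen with earlier results of these data known. The genes named are the members in every group, in each list of chemokines, receptors, growth factors and monocyte markers for each injury comparison and direction the called gene that had the lowest adjusted p, and for each member the 3 genes with the highest correlation over group means. Ackr2 in STR/ort at 1-week and Ccl24 in MRL/MpJ at 2-weeks were named after their values were seen. Some genes that this rule names are not reported here. Gene positions and lengths were read from RefSeq on GRCm38.p6, and upstream sequences from the RefSeq promoter table of the same build.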

Additional observations from a re-analysis of the deposited data

Results flagged for a closer look

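In 16 of 189 groups of libraries (9 genes in 21 groups), 1 library stood apart from the rest of its group in Dixon's test, and chance gives about 5% of groups. The values are CPM, with the range of the other libraries of the group in parentheses, and no explanation was tested. For Ccl2 they were 1.11 in MRL/MpJ injured 1-week replicate 3 (0.523 to 0.683), 4.15 in STR/ort uninjured 1-week replicate 1 (1.35 to 1.81) and 8.73 in STR/ort injured 2-weeks replicate 5 (1.84 to 3.48). For Ccl7 they were 16.9 in MRL/MpJ injured 1-day replicate 2 (10.5 to 12.3), 0 in C57BL/6 uninjured 1-week replicate 4 (0.346 to 0.447) and 0.757 in C57BL/6 uninjured 2-weeks replicate 3 (0.337 to 0.369). For Ccl8 they were 10.7 in STR/ort uninjured 1-week replicate 1 (1.57 to 2.81) and 0.775 in MRL/MpJ uninjured 2-weeks replicate 1 (0.171 to 0.335). For Ccl12 they were 4.74 in STR/ort injured 1-day replicate 2 (1.11 to 2.07) and 0.982 in C57BL/6 injured 1-week replicate 3 (0.309 to 0.445). Ccl3 had 1.80 in MRL/MpJ 0-day replicate 1 (1.16 to 1.21) and 1.79 in C57BL/6 uninjured 2-weeks replicate 1 (1.16 to 1.29). Ccl4 had 0.804 in STR/ort injured 1-day replicate 4 (1.03 to 1.10), 0.983 in C57BL/6 uninjured 1-week replicate 5 (0.447 to 0.525) and 0.338 in STR/ort uninjured 1-week replicate 4 (0.604 to 0.658). Ccr2 had 222.0 in C57BL/6 uninjured 2-weeks replicate 1 (131.0 to 147.0). The STR/ort uninjured 1-week replicate 1 stood apart for both Ccl2 and Ccl8.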

How the results depend on the processing

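No called difference of the 9 genes changed direction under any alternative. Of 121 counts of calls under the alternatives other than leaving out 1 library, 116 stayed within 1.5 times the value reported. The exceptions were at 1-week. The calls between strains within injured joints were 10, and 5 with 1 RUVg factor and 4 with 2 factors. Those within uninjured joints were 12, and 6 with 2 RUVg factors. The interaction of strain and injury at 1-week gave 0 calls, 1 with 2 RUVg factors and 1 with the replicate block. The cause was not tested. Of the 115 called results, 115 remained called with RLE factors and without a filter, 114 with housekeeping scaling, 96 with 1 RUVg factor and 85 with 2. DESeq2 kept 112 of 114 with a value, and filterByExpr 112 of 112. The replicate block kept 26 of 26 calls and gained those of Ccl8 in STR/ort at 1-day (1.10, adjusted p = 0.0296, against 1.02, adjusted p = 0.0775), where the joints share only a number, and of the interaction of Ccr2 at 1-week; it changed no other call. At 1-day the correlations of same-numbered joints ranged from -0.172 to 0.224 in MRL/MpJ, from 0.059 to 0.144 in C57BL/6 and from -0.21 to 0.392 in STR/ort, and at 1-week from 0.084 to 0.177 in MRL/MpJ and from -0.035 to 0.431 in C57BL/6. With 1 library left out, the counts ranged from 11 to 13 for strains at 0-day. For injury they ranged from 14 to 17 at 1-day, 6 to 8 at 1-week and 3 to 5 at 2-weeks. For strains within injured joints the ranges were 9 to 13, 10 to 12 and 12 to 16, and within uninjured joints 7 to 8, 11 to 13 and 7 to 10. For the interaction they were 0 to 0, 0 to 1 (without STR/ort uninjured 1-week replicate 2 or 3) and 0 to 0. Contralateral joints against 0-day gave 0 to 1 at 1-day and 1 to 5 at 1-week (1 without C57BL/6 0-day replicate 1 or STR/ort uninjured 1-week replicate 3, and 5 without STR/ort 0-day replicate 1). Injured joints at 1-week against 1-day gave 12 to 14. Uninjured libraries with few reads of Ccl7 and Ccl12 limit the precision of their fold changes, and differences there may not be detectable at this depth.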
